A study of Mus musculus with 10 samples.

Results

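The clustered protocadherins were taken from the deposited table by symbol alone, as every gene named *Pcdha* or *Pcdhac*, *Pcdhb*, or *Pcdhga*, *Pcdhgb* or *Pcdhgc* followed by a number. The rule found 54 members among 18901 listed genes: 11 of the α cluster, 21 of the β cluster and 22 of the γ cluster. In the mouse genome build GRCm38 (GENCODE M21) they lie on the plus strand of chromosome 18, the α cluster from 36930184 to 37187661, the β cluster from 37264938 to 37524479 and the γ cluster from 37661793 to 37841873. *Pcdha1*, *Pcdha4*, *Pcdha5* and *Pcdhb1* were not analysed here.

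Protocadherins of these clusters are cadherin-like adhesion proteins of the cell surface, best known from neurons, where cells that carry the same combination of them recognize each other as self. Every α and γ member has its own promoter and its own large first exon, which is spliced to short exons shared by the whole cluster, while each β member has its own first exon and no shared ones. In neurons most promoters are switched on in only some cells, with the DNA-binding protein CTCF and the cohesin ring at the chosen promoters and DNA methylation at the silent ones, and the C-type members (*Pcdhac1*, *Pcdhac2*, *Pcdhgc3*, *Pcdhgc4* and *Pcdhgc5*) at the ends of the α and γ clusters are used more uniformly.

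Poly(A) RNA of 10 libraries was sequenced from 5 mouse lines, all of a cross between the mf1 and 129 strains and all carrying an Oct4-GFP reporter. The study asked whether iPS clones obtained with recombinant Netrin-1 resembled clones obtained without it. Here the members are followed through the same lines, since a line grown from 1 clone could carry a choice of isoforms of its own.

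Oct4-GFP MEF, mid-gestation embryonic fibroblasts grown in DMEM with 10% FCS, were sampled at passages 2 and 4 and were the starting cells. A 'control' iPS line and 2 clones called 'rNetrin-1-derived' (clones 1 and 2) came from such fibroblasts after infection with Oct4, Sox2, Klf4 and c-Myc retroviruses, the clones with recombinant Netrin-1 in the medium. The pre-iPS line is partially reprogrammed, with the reporter not reactivated and the retroviral transgenes not silenced. These 4 lines were kept in KSR medium with LIF and sampled at passages 5 and 25. According to the methods, pre-iPS and iPS cells were grown on gelatin or on irradiated MEF, and which of these applied to each library is not given. For the medium of these cells the methods name KSR with LIF, or KSR with LIF and the 2i inhibitors. The labels do not say whether any other line is more than 1 clone, and the passages are repeated samples of their line, so a p below measures the spread between passages and not between clones.

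Depth was 38110410 to 52946856 reads on genes per library. The values are read counts brought by the authors to a common library size, on which 1 read is worth 0.888 to 1.18. This scale does not follow depth alone. In MEF at passage 2, with 47356484 reads, 1 read is worth 1.18, and in the control line at passage 5, with 43198802, it is worth 0.967. MEF values therefore stand higher against the other lines than reads at equal depth do, on which the read ratios below rest. The 10 fibroblast markers summed to 0.726 to 1.26% of the MEF mean in the 6 iPS libraries. In that sum *Col1a1*, *Col1a2* and *Col3a1* weigh most, at 1192000, 895000 and 658200 in MEF. The iPS means of single markers were 0.12 to 26.4% of MEF. All 9 pluripotency markers were lower in MEF than in iPS. In pre-iPS 6 of those 9 were lower than in iPS and *Pou5f1*, which is also the Oct4 of the retroviruses, was higher. Values of 4 Y-linked genes were 773 to 2721 per gene in control and clone 1 cells but 0 to 7.14 in clone 2 and pre-iPS, where *Xist* reached 16030 to 22080 against 144 to 317. MEF had both, with the Y-linked genes at 77.6 to 387 and *Xist* at 52730 to 52990. The lines therefore differ in sex-linked expression as well as in the treatment, and the part of this in the results was not tested.

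The clusters gave very different numbers of reads. In the 6 iPS libraries the 11 α members together had 17 to 53 reads, the 21 β members 302 to 606 and the 22 γ members 2836 to 4226. In MEF the same sums were 863 and 927, 4563 and 5138, and 21540 and 23771 reads. RNA of a line is summed over its cells, so fewer cells that use a member and less RNA of it per cell cannot be told apart, and neither can the number of members used by 1 cell be read from it.

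**Figure D1:**
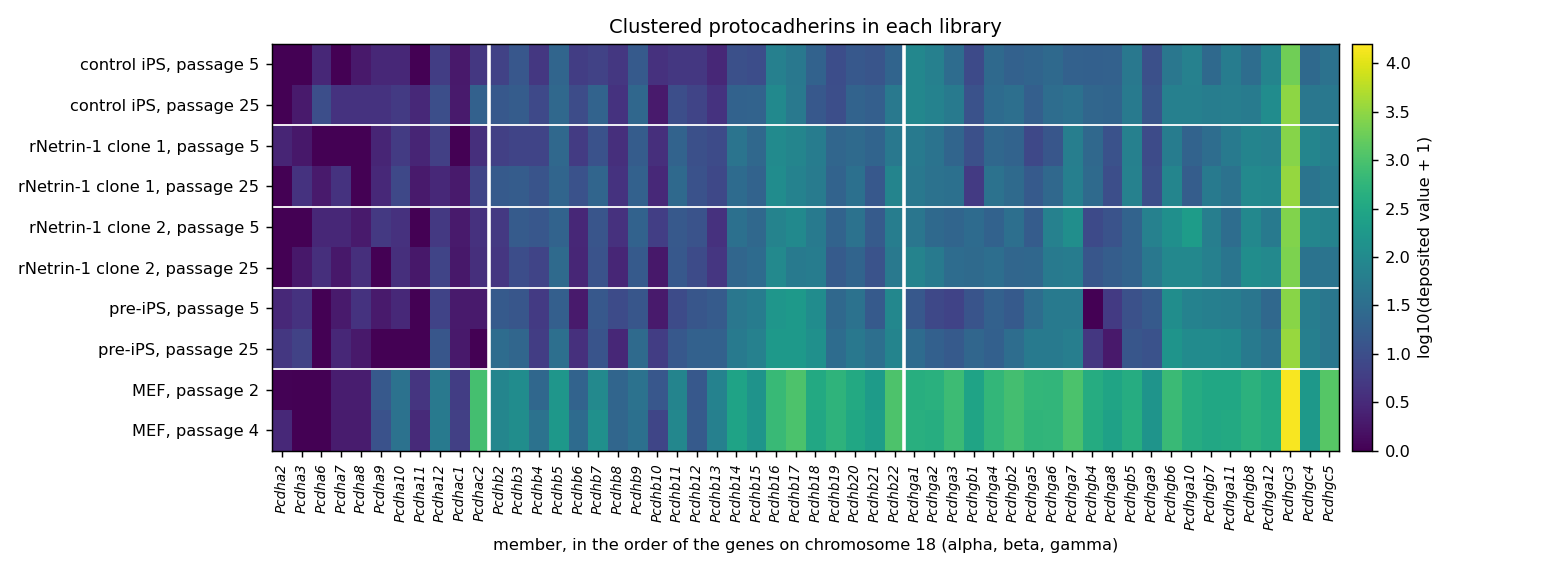
Colour map of log10(deposited value + 1) for the 54 members (columns, in genomic order, white lines between the α, β and γ clusters) in the 10 libraries (grouped by line). *Pcdhgc3* stands out in each library, the 2 MEF libraries are brightest for most members, and most α members are near 0 outside MEF.

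A member was tested where its value reached 10 in at least 2 libraries. This kept 46 members (4 α, 20 β and 22 γ), of which 6 (the 4 α members, *Pcdhb6* and *Pcdhb8*) passed only through MEF. The 8 others were *Pcdha2*, *Pcdha3*, *Pcdha6*, *Pcdha7*, *Pcdha8*, *Pcdha11*, *Pcdhac1* and *Pcdhb10*. Of these *Pcdhb10* reached 12.7 in 1 MEF library, *Pcdha6* reached 9.39 in the control line at passage 25, and no other exceeded 5.76 in any library. A member was called different in limma at an adjusted p under 0.05 with a change of at least 1 on the log2(value + 1) scale, and only such a change is described as a rise or a fall.

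MEF and iPS cells were compared first, since MEF were the cells from which the iPS lines came. Clustered protocadherin RNA was broadly higher in the fibroblasts in the β and γ clusters, and for part of the α cluster. *Pcdha3*, *Pcdha6*, *Pcdha7* and *Pcdha8* had a lower mean in MEF than in iPS, at means of at most 2.84. Both MEF libraries lay above all 6 iPS libraries for 49 of the 54 members, which were 6 α, 21 β and 22 γ members, against 35.6% of all listed genes. None of the 54 had both MEF libraries below the 6 iPS libraries, against 39.9% of listed genes. Fitted with no filter on low values, limma called 46 of the 54 higher in MEF (5 α, 19 β and 22 γ), against 20.5% of all listed genes. Among the 46 tested members 44 were called, all higher, against 48.2% called of all tested genes and 21.6% called higher. Their median difference cannot be set beside that of other genes without bias, since 6 of them were tested only because of their MEF values.

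The largest difference was that of *Pcdhac2*, the last α member and a C-type one. Its values were 908 and 867 in the MEF libraries. In iPS they were 3.87 and 18.8 in the control line, 2.65 and 6.16 in clone 1, and 2.98 and 2.68 in clone 2 (passages 5 and 25 in that order, here and below). The pre-iPS libraries had 1 read and 0 reads of it. Every other line was thus far below MEF, and the difference from iPS was 7.27 ± 0.55 (SE) on the log2(value + 1) scale (limma, adjusted p = 2.97e-06). *Pcdhac2* passed the filter only through MEF, and its call also held in the fit with no filter. With 3 to 18 reads per iPS library, the size of the difference depends on the constant added.

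The other C-type members did not move alike. *Pcdhgc5* was 1225 and 1300 in MEF and 36.7 to 75.4 in iPS, a log2 difference of 4.61 ± 0.25. *Pcdhgc3*, the most abundant member per kb, was 14632 and 14301 in MEF and 1977 to 3470 in iPS, a log2 difference of 2.44 ± 0.17. *Pcdhgc4*, with 173 and 185 against 26.1 to 84.3, differed by 1.86 ± 0.37, the smallest difference among the members called. *Pcdhac1* stayed at 0 to 1.05 in iPS and at 4.77 and 5.28 in MEF, too low to be tested. All 3 γ members had both MEF libraries above every iPS library.

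Apart from *Pcdhac2*, the members with the largest MEF excess came from the β and γ clusters. *Pcdhga5* had 600 and 549 in MEF and 7.09 to 24.2 in iPS, a log2 difference of 5.10 ± 0.33 (limma, adjusted p = 1.26e-06). *Pcdhb19* had 543 and 523 in MEF and 8.70 to 23.1 in iPS, a log2 difference of 5.04 ± 0.22 (limma, adjusted p = 1.40e-07). *Pcdhgb2*, with 891 and 837 against 19.3 to 33.4, differed by 5.02 ± 0.34 (limma, adjusted p = 1.54e-06). The groups were far apart for each of these.

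A pair of tested β members was not called. *Pcdhb12* was 13.1 and 14.8 in MEF and 3.87 to 10.9 in iPS, a log2 difference of 0.76 ± 0.31. *Pcdhb9* was 37.8 and 34.9 against 14.3 to 24.0, a difference of 0.99 ± 0.35, just under the required size of 1. For both the libraries still did not overlap.

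**Figure D2:**
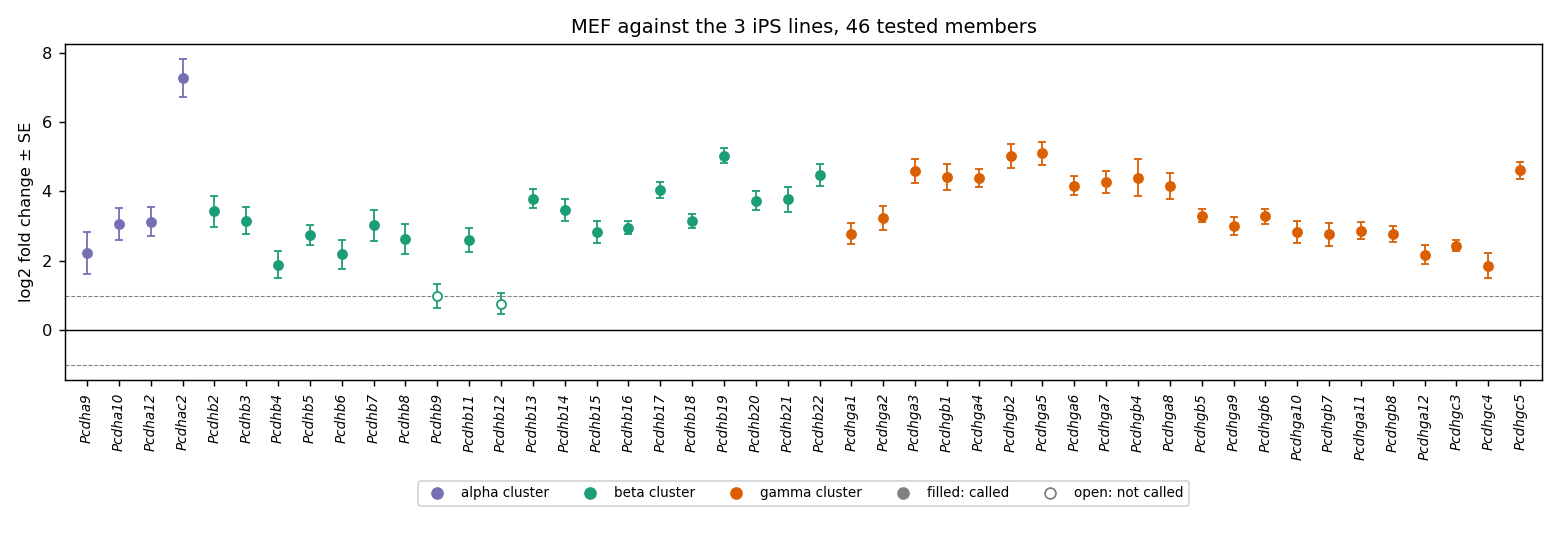
Difference between MEF and the 3 iPS lines on the log2(value + 1) scale (bars: standard error from limma) for the 46 tested members in genomic order, coloured by cluster. All points lie above 0, from 0.76 (*Pcdhb12*) to 7.27 (*Pcdhac2*).

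The level left in iPS cells varied widely between members. Over the 46 members with a mean value of at least 10 in MEF, 6 of which were tested only through MEF, the iPS mean was 0.697% (*Pcdhac2*) to 58.7% (*Pcdhb12*) of the MEF mean, with a median of 11.0%, and 1 member was under 2%. Of the 10 fibroblast markers 6 were under 2%, down to 0.12% (*Lum*), and 3 lay above the members' median, *Pdgfra* at 16.2%, *Dcn* at 19.1% and *Twist2* at 26.4%. The difference between members and markers was not tested. None of the markers was at 0 in any library. Whether irradiated MEF in the culture added RNA to the iPS libraries was not tested.

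To compare members with each other, a value was divided by the kilobases of exon that belong to that member alone, since the exons shared across a cluster cannot be assigned to one member. Shared exons covered 2860 bases of each α member located in GENCODE, and *Pcdha10*, whose exons were not located, was left out of such levels. Evenness is given as an effective number, the number of equally abundant members that would give the same Shannon entropy. Of the 50-base words in a member's own exon, 0 to 23.4% also occur in another member (highest in *Pcdha7*), so part of the reads of near-identical members may be split or lost, depending on counting rules that are not given in the sources used here.

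*Pcdhgc3* led the γ cluster in every library. Its share of the summed γ level per kb was 71.8% in the control line, 76.9% in clone 1, 65.0% in clone 2, 75.5% in pre-iPS and 53.3% in MEF (means of both libraries). Its value was 1977 and 3117 in the control line, 2780 and 3470 in clone 1, 2570 and 2350 in clone 2, and 2791 and 3517 in pre-iPS. These lines overlapped, and *Pcdhgc3* was not called between any iPS lines or between pre-iPS and iPS (limma, log2 difference 0.23 ± 0.17).

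Without *Pcdhgc3* the γ cluster was spread over many members in each line. Of 21 possible, the effective number was 18.2 in the control line, 17.5 in clone 1, 16.8 in clone 2, 14.5 in pre-iPS and 18.3 in MEF. No line was thus reduced to a few A-type or B-type members, and the pre-iPS line was the least even. The leading member took 9.08% of the remaining γ level in the control line (*Pcdhga1*, then *Pcdhga2* and *Pcdhga10*), 12.3% in clone 1 (*Pcdhgb8*, then *Pcdhgb6* and *Pcdhga7*) and 14.4% in clone 2 (*Pcdhga10*, then *Pcdhgb6* and *Pcdhgb8*). In pre-iPS *Pcdhgb6* led with 16.9%, followed by *Pcdhga10* and *Pcdhgb7*, and in MEF *Pcdhga4* led with 10.0%, followed by *Pcdhga7* and *Pcdhgb2*. The order at the top was not firm between passages: *Pcdhga2* led in the control line at passage 25 with 8.44%, and *Pcdhgb8* in clone 2 at passage 25 with 12.5%.

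**Figure D3:**
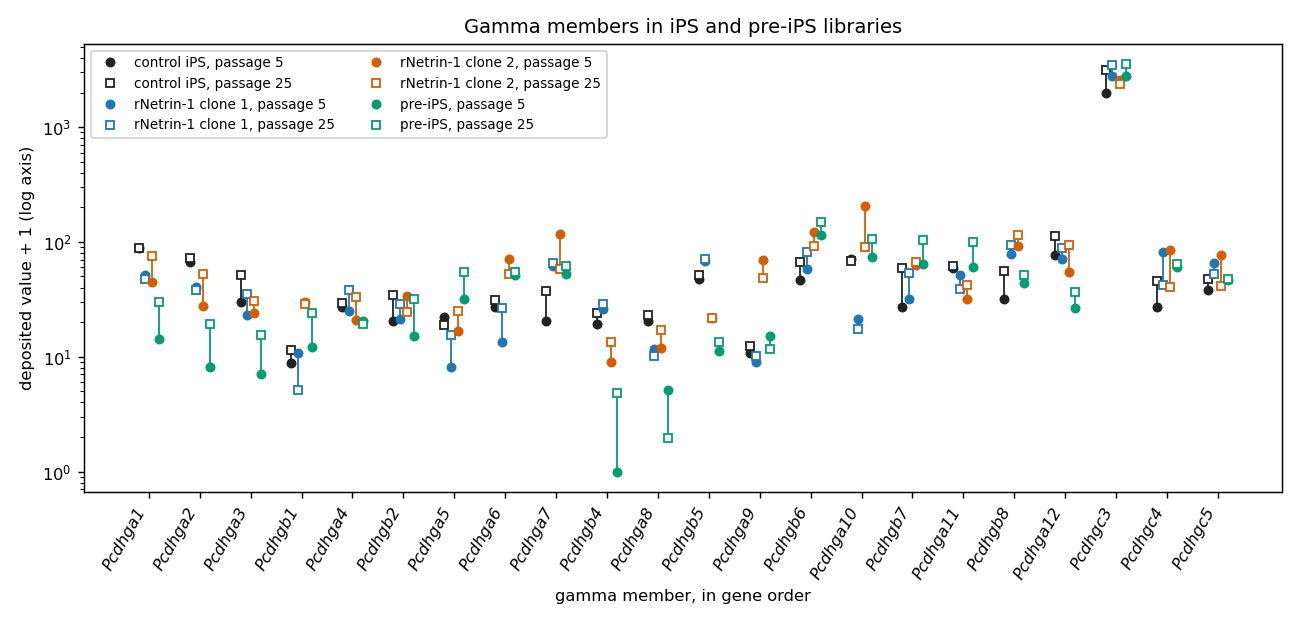
Deposited value + 1 (log axis) of the 22 γ members in genomic order in the iPS and pre-iPS libraries, with passage 5 as a filled circle and passage 25 as an open square, joined within a line. Clone 2 is high at *Pcdhga9* and *Pcdhga10*, clone 1 is low at *Pcdhga10*, and pre-iPS is low at *Pcdhga1* to *Pcdhga3* and from *Pcdhgb4* to *Pcdhgb5*.

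In the β cluster *Pcdhb16* and *Pcdhb17* were among the 3 leading members of every line. *Pcdhb16* led in the control line (18.4% of the summed β level per kb), in clone 1 (15.9%) and in clone 2 (14.6%), and *Pcdhb17* led in pre-iPS (18.7%) and MEF (20.1%). The other leading member was *Pcdhb5* in the control line, *Pcdhb18* in both clones and pre-iPS, and *Pcdhb22* in MEF. In clone 2 at passage 5 *Pcdhb17* stood before *Pcdhb16*. The effective number, of 21 members, was 15.3, 15.8, 14.8, 13.0 and 12.9 for the control, clone 1, clone 2, pre-iPS and MEF.

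In the α cluster of MEF *Pcdhac2* held 90.9% of the level per kb, followed by *Pcdha12* and *Pcdha9*, and the effective number was 1.48. This holds for the 10 α members with an exon length, since *Pcdha10*, at 37.9 and 38.0 in MEF, could not be ranked. In the other lines the summed α level per kb was 6.09 to 12.1, against 322 in MEF, which is too few reads to rank members. *Pcdha12*, read at 49.8 and 51.7 in MEF, was 2.06 to 9.39 in iPS and 6.12 and 12.5 in pre-iPS. *Pcdha6* was at 1.93 and 9.39 in the control line and at 0 in MEF. Given that 0 reads allow up to 3 reads per library, absence of *Pcdha6* from MEF cannot be stated.

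Profiles of the γ members on the log scale correlated across members with Pearson's r of 0.924 to 0.998 between the passages of a line (5 pairs, 22 members), 0.698 to 0.926 between iPS lines (12 pairs) and 0.673 to 0.901 between iPS and pre-iPS (12 pairs). With pre-iPS, clone 2 gave 0.853 to 0.901, the control line 0.673 to 0.756 and clone 1 0.681 to 0.730. For the 21 β members the ranges were 0.881 to 0.989, 0.792 to 0.963 and 0.754 to 0.906, and with pre-iPS the control line gave 0.754 to 0.811, clone 1 0.841 to 0.906 and clone 2 0.852 to 0.898. These are descriptions over genes that share library, exons and sequence, and *Pcdhgc3* raises each γ value. Within both clusters the ranges for passages of a line and for different iPS lines overlapped.

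The 3 iPS lines were compared to ask whether members differ between clonal lines beyond the spread between passages. In limma's F test over the 3 lines 4 of 46 tested members were called (8.70%), namely *Pcdhga10*, *Pcdhga9*, *Pcdhb18* and *Pcdhgb5*, against 3.08% of all tested genes. The libraries of the 3 lines did not overlap pairwise for 7 members (1 β and 6 γ), against 12.3% of tested genes. None of the 4 was called when the fit held only the iPS libraries, and *Pcdhga9* alone kept its call without any 1 library.

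*Pcdhga10*, a γ member of the A type, differed most. It was 69.6 and 66.7 in the control line, 20.4 and 16.4 in clone 1, and 206 and 88.7 in clone 2. Libraries of the 3 lines did not overlap, with clone 1 lowest and clone 2 highest. Clone 2 was above clone 1 by 2.82 ± 0.38 on the log2 scale (limma, adjusted p = 0.0173), 1 of 3 members called in that contrast against 0.966% of tested genes. Clone 1 was below the control by 1.84 ± 0.38 (limma, adjusted p = 0.0484), 1 of 2 members called against 1.41%. The pluripotency markers *Nanog*, *Esrrb* and *Zfp42*, 3 of the 9, were also called higher in clone 2 than in clone 1, by 1.37, 2.35 and 2.27 on the log2 scale, and their part in the differences between the clones was not tested. The first call was lost without either clone 1 or either MEF library (adjusted p up to 0.132 in limma), and the second without any 1 of 8 libraries (up to 0.21).

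*Pcdhga9*, the A-type member 2 places upstream, was high in clone 2 alone. Its values were 9.67 and 11.5 in the control line, 7.98 and 9.24 in clone 1, and 68.4 and 47.5 in clone 2. Clone 2 rose above the control by 2.33 ± 0.31 (limma, adjusted p = 0.00765) and above clone 1 by 2.60 ± 0.31 (limma, adjusted p = 0.0121). In clone 2 against the control 3 members were called, against 2.42% of tested genes. Against clone 1 the call was lost without either clone 1 library (limma, adjusted p = 0.0644 and 0.0777). *Pcdhgb6*, the B-type member that lies between both, was 45.5 and 65.7, 56.8 and 81.1, and 122 and 91.4 in the same order and was not called in any contrast of iPS lines.

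*Pcdhgb5*, directly upstream of *Pcdhga9*, went the other way in clone 2. It was 46.4 and 50.1 in the control line, 67.5 and 69.8 in clone 1, and 20.8 and 20.6 in clone 2. Clone 2 was below the control by 1.18 ± 0.23 (limma, adjusted p = 0.0314) and below clone 1 by 1.68 ± 0.23 (limma, adjusted p = 0.0205). The libraries of the 3 lines did not overlap. Without 1 library the adjusted p of these calls in limma reached 0.147 and 0.146, without control passage 25 and clone 1 passage 25.

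*Pcdhb18* was the 1 member called in both clones against the control. It was 20.3 and 13.6 in the control line, 56.8 and 54.4 in clone 1, and 52.6 and 57.3 in clone 2. All 4 clone libraries lay above both control libraries and the clones overlapped each other. The difference of the clones from the control was 1.68 ± 0.22 (limma, adjusted p = 0.0066), and without the control library of passage 25 it was 1.40 (limma, adjusted p = 0.0514).

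The mean of both clones differed from the control line in 3 of 46 tested members, all higher, against 2.11% of tested genes: *Pcdhb18*, *Pcdhgb8* and *Pcdhb19*. *Pcdhgb8* was 30.9 and 54.2 in the control line and 77.2 to 114 in the clones, a log2 difference of 1.16 ± 0.26 (limma, adjusted p = 0.0449). *Pcdhb19* was 8.70 and 9.39 in the control line and 15.2 to 23.1 in the clones, a difference of 1.04 ± 0.23 (limma, adjusted p = 0.0482). Both calls were lost without most single libraries (limma, adjusted p up to 0.215 for *Pcdhgb8* and 0.189 for *Pcdhb19*, each without control passage 5), and that of *Pcdhb19* was lost in limma with the passage as a block (adjusted p = 0.0749).

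The β members as a group leaned upwards in the clones, mostly without passing the test. Their median log2 difference from the control was 0.62 over the 20 tested, against −0.0072 over all genes, and that of the 22 γ members was 0.014. Clone and control libraries did not overlap, in either direction, for 14 members (8 β and 6 γ), against 21.3% of tested genes. The clones were below the control for *Pcdhb8*, *Pcdhga1*, *Pcdhga2*, *Pcdhga8* and *Pcdhga11*, and above it for the others. The control line was low as a whole at passage 5, with a summed β value of 292 against 432 at passage 25, and 451 to 593 in the clones. Of 12 neural markers 11 were tested, and *Stmn2* alone was called, higher in the clones. The sum of the 12, with none at 0 in these libraries, was 12374 and 12655 in the control line against 20843 to 28388 in the clones. Most of that difference lies in *Stmn2* (3505 and 3307 against 8307 to 12708) and *Nes* (3624 and 3360 against 4176 to 10193), while *Pax6* was 682 and 1261 against 502 to 844. The part of these genes in the β result was not tested. With 1 control line, the treatment and the clone cannot be told apart.

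**Figure D4:**
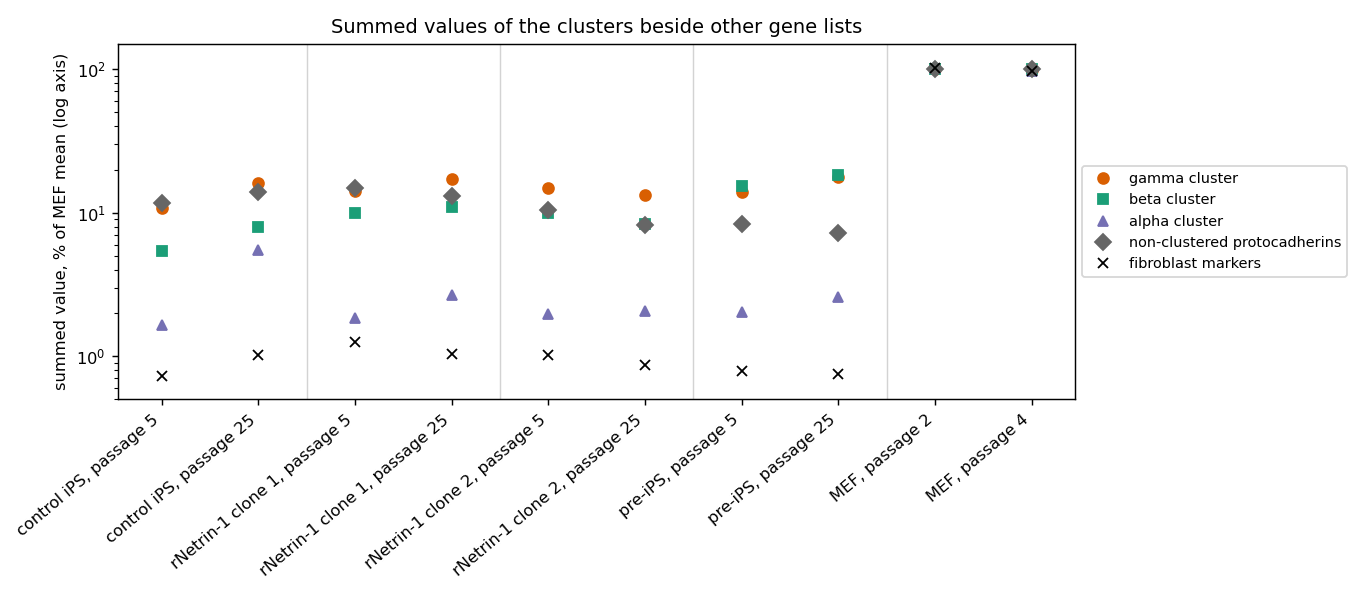
Summed deposited value of the α, β and γ clusters, of the non-clustered protocadherins and of the fibroblast markers in each library as a percentage of the MEF mean (log axis). The α cluster stays at 1.64 to 5.53%, the β cluster at 5.39 to 11.0% in iPS and 15.4 and 18.3% in pre-iPS, and the γ cluster at 10.8 to 17.8%. All are above the summed fibroblast markers at 0.726 to 1.26%, a sum in which *Col1a1*, *Col1a2* and *Col3a1* weigh most. Single markers reached 26.4% as an iPS mean (*Twist2*).

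Pre-iPS cells, in which reprogramming stopped part of the way, were compared with the 3 iPS lines. Of 46 tested members 16 were called (34.8%), 7 higher (6 β and 1 γ) and 9 lower (2 α and 7 γ), against 16.3% of tested genes, 4.71% higher and 11.6% lower. The 6 β members called were all higher, with 14 of 20 not called, and of the 8 γ members called 7 were lower, with 14 of 22 not called. The median log2 difference was 0.78 over the 20 β and −0.21 over the 22 γ members, against 0.0011 over all tested genes. After quantile normalization the split was 21 higher and 5 lower. It raised the median of the 46 members from 0.28 to 0.82, while that of all genes moved to 0.053. Over all tested genes it gave 1483 higher and 1426 lower, against 804 and 1977 in the main fit.

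The β members that rose lie mostly side by side, from *Pcdhb13* to *Pcdhb18*. *Pcdhb13* was 15.3 and 19.2 in pre-iPS against 1.93 to 7.98 in iPS, a log2 difference of 1.85 ± 0.28 (limma, adjusted p = 0.00116). *Pcdhb18* was 109 and 130 against 13.6 to 57.3, a difference of 1.65 ± 0.21 (limma, adjusted p = 0.000466). *Pcdhb15* was 57.1 and 68.2 against 8.70 to 28.7, a difference of 1.58 ± 0.31 (limma, adjusted p = 0.0047). The pre-iPS libraries lay above all 6 iPS libraries for each.

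*Pcdhb17*, the leading β member of pre-iPS, was 180 and 177 there and 46.4 to 98.2 in iPS, a log2 difference of 1.48 ± 0.23 (limma, adjusted p = 0.0015). *Pcdhb2*, at the other end of the cluster, was 14.3 and 29.8 against 3.58 to 14.4, so the groups overlapped slightly, with a difference of 1.48 ± 0.46 (limma, adjusted p = 0.0314) that was 0.98 without the pre-iPS library of passage 25 (limma, adjusted p = 0.24). *Pcdhb14* was the sixth β member called, at 1.01 ± 0.31. *Pcdhb16*, between *Pcdhb15* and *Pcdhb17*, was 161 and 184 against 65.8 to 108 and missed the size threshold at 0.96 ± 0.19. The 1 γ member that rose was *Pcdhga5*, with 30.6 and 53.8 against 7.09 to 24.2 and a difference of 1.31 ± 0.33.

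The γ members that fell in the main fit came in 2 runs along the cluster and 1 member apart. The first run holds *Pcdhga1*, *Pcdhga2* and *Pcdhga3*, the 3 most upstream γ members. *Pcdhga2* was 7.14 and 18.2 in pre-iPS and 26.8 to 72.0 in iPS, a log2 difference of −1.91 ± 0.36 (limma, adjusted p = 0.0035). *Pcdhga1* was 13.3 and 28.8 against 43.6 to 88.0, and *Pcdhga3* 6.12 and 14.4 against 22.2 to 50.1, with differences of −1.62 ± 0.31 and −1.57 ± 0.35. For all 3 the pre-iPS libraries lay below every iPS library. After quantile normalization 5 members in all were called lower. *Pcdhga2*, *Pcdhgb4*, *Pcdhga8* and *Pcdhgb5* kept their calls in every alternative. At most 1 of *Pcdhga1*, *Pcdhga3*, *Pcdhga12*, *Pcdhac2* and *Pcdha10*, the others called lower in the main fit, can therefore be among those 5.

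The second run is *Pcdhgb4*, *Pcdhga8* and *Pcdhgb5*, consecutive along the chromosome. *Pcdhgb4* was 0 and 3.84 in pre-iPS and 7.93 to 27.7 in iPS, the largest fall, by 3.08 ± 0.52 on the log2 scale (limma, adjusted p = 0.00211). *Pcdhga8* was 4.08 and 0.957 against 9.24 to 21.9, a fall by 2.25 ± 0.37 (limma, adjusted p = 0.00194). *Pcdhgb5* was 10.2 and 12.5 against 20.6 to 69.8, with clone 2 the nearest line, a fall by 1.78 ± 0.19 (limma, adjusted p = 0.000211).

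*Pcdhga12*, further downstream, was 25.5 and 35.5 against 53.6 to 111 and fell by 1.38 ± 0.27. Its neighbours did not follow: *Pcdhgb8* was 42.9 and 50.9 against 30.9 to 114, and *Pcdhga11* 59.2 and 97.9 against 30.7 to 60.5. Both pre-iPS libraries lay below all 6 iPS libraries for 9 of the 54 members (1 α and 8 γ), against 20.9% of listed genes, and above them for 12 (1 α, 10 β and 1 γ), against 18.6%.

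Both α members called rest on very few reads. *Pcdhac2* had 1 read in pre-iPS and 37 in the iPS libraries, 12.2 times more in iPS at equal depth, with an exact 95% interval of 2.06 to 494.7 that covers counting error only. Of these 37 reads the control library of passage 25 held 18, and without it the ratio was 7.37, with an interval of 1.17 to 306.2. *Pcdha10* had 2 reads against 24, a ratio of 3.96 with an interval of 0.982 to 34.5, which includes 1. Their fitted differences, −2.02 and −1.41 on the log2 scale, depend on the constant added to the values, and *Pcdhac2* was not called by edgeR (adjusted p = 0.0616), by DESeq2 (adjusted p = 0.0575) or by limma without the pre-iPS library of passage 25 (adjusted p = 0.15).

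**Figure D5:**
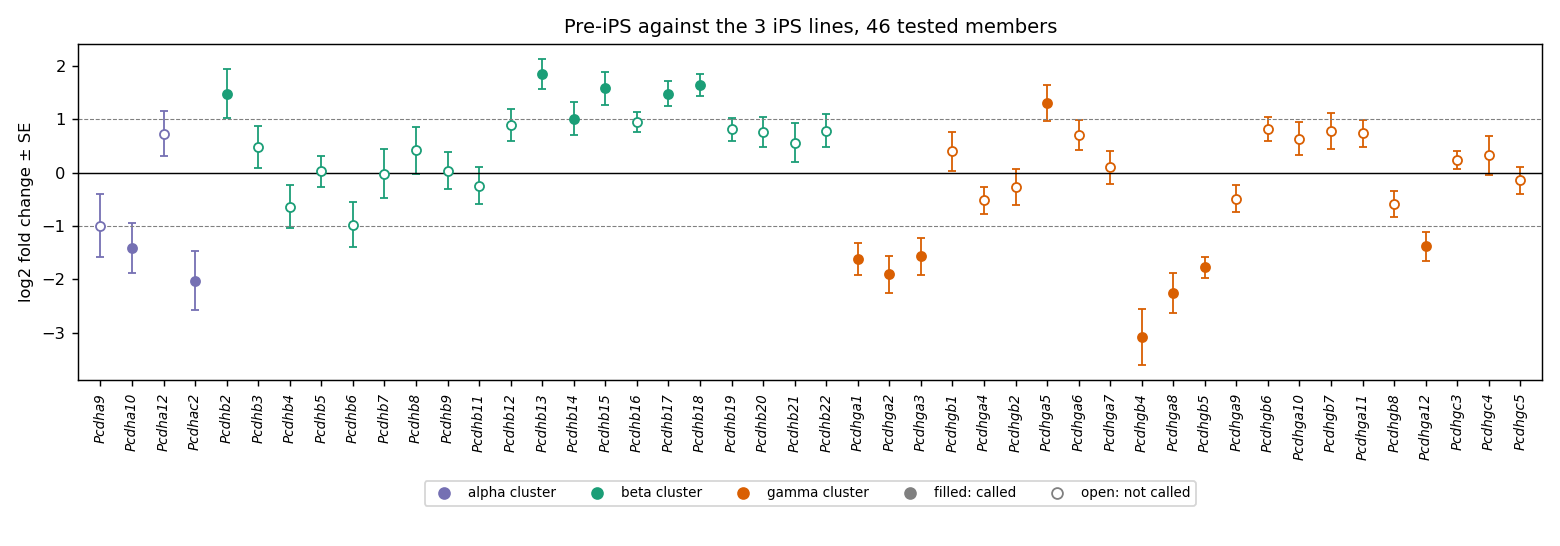
Difference between pre-iPS and the 3 iPS lines on the log2(value + 1) scale (bars: standard error from limma) for the 46 tested members in genomic order, coloured by cluster, filled where called and with dashed lines at 1 and −1. Points of *Pcdhb13* to *Pcdhb18* lie above 0, and those of *Pcdhga1* to *Pcdhga3* and of *Pcdhgb4* to *Pcdhgb5* lie below it.

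Against MEF, pre-iPS was lower in 44 of the 46 tested members in limma, against 43.2% called of all tested genes and 20.9% called lower, and 6 of the 46 were tested only because of their MEF values. With no filter on low values limma called 46 of the 54 members lower, against 19.8% of all listed genes, and 1 higher. This comparison shares the MEF libraries with that of MEF and iPS. *Pcdhac2* had 1 read in pre-iPS and 1589 in MEF, 1328 times more at equal depth with an exact 95% interval of 238 to 52492. *Pcdhgb4*, at 0 and 3.84 against 396 and 390, fell by 7.48 ± 0.64 on the log2 scale. *Pcdhga8*, at 4.08 and 0.957 against 284 and 250, fell by 6.40 ± 0.46. *Pcdhga3* fell by 6.16 ± 0.43 and *Pcdhgb2* fell by 5.29 ± 0.42. *Pcdhb12* was 12.2 and 19.2 in pre-iPS against 13.1 and 14.8 in MEF, and *Pcdhb9* 12.2 and 26.9 against 37.8 and 34.9, and neither was called.

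Passage 25 was compared with passage 5 within the 4 pre-iPS and iPS lines. No tested member was called in limma, where 1.69% of genes were, nor in edgeR or DESeq2. At an unadjusted p under 0.05 limma found 5 (*Pcdhga3*, *Pcdhga12*, *Pcdhgb7*, *Pcdhgc3* and *Pcdhb2*), edgeR 6 and DESeq2 3. The median log2 difference was 0.27 over the 46 members and −0.012 over all tested genes. *Pcdhga3* had the lowest unadjusted p, with a difference of 0.71 ± 0.23 (limma, adjusted p = 0.0936).

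Among 25 genes of promoter choice and silencing (CTCF, the cohesin ring and its loaders, and the DNA methylation machinery), limma and edgeR called none in the F test over the iPS lines (10 and 8 at an unadjusted p under 0.05) and DESeq2 called 1. In pre-iPS limma called 5 lower, against 11.6% of tested genes. The *de novo* methyltransferase gene *Dnmt3b* and its partner *Dnmt3l* fell by 2.72 ± 0.14 and 7.55 ± 0.55 on the log2 scale, and *Tet1*, which starts the removal of methyl groups, by 2.02 ± 0.25. *Dnmt3a* and *Rest* fell by 1.32 and 1.04. In MEF 6 were lower than in iPS, against 4547 of 17075 tested genes, and with passage *Dnmt3l* alone was called, lower. *Ctcf* and the cohesin genes of the list were among those not called in any of these comparisons, where a call needs a log2 change of at least 1. Smaller differences were present. The iPS mean was 138% of the MEF mean for *Ctcf*, and 91.7% (*Mau2*) to 171% (*Smc3*) for the cohesin genes and their loaders. Of the 25 genes, limma found 19 at an unadjusted p under 0.05 for MEF against iPS and 14 for pre-iPS against iPS.

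Most of the non-clustered protocadherins, single genes of the same family, were also higher in MEF. Of 12 listed, 11 were tested, with 8 higher and 2 lower in MEF than in iPS. Of all tested genes 21.6% were called higher and 4547 of 17075 lower. Over the 11 the median iPS level was 8.05% of the MEF mean, against 11.0% over the 46 members with a MEF mean of at least 10. In pre-iPS 1 was higher (*Pcdh15*) and 3 lower (*Pcdh8*, *Pcdh10* and *Pcdh1*), against 4.71% and 11.6% of tested genes. *Pcdh8* was 9.18 and 8.64 in pre-iPS and 51.6 to 140 in iPS, a fall by 3.08 ± 0.23, and it was also called lower in clone 2 than in the control (limma, log2 difference −1.26, adjusted p = 0.0494). *Pcdh11x* and *Pcdh10* had the largest excess in MEF, by 6.39 ± 0.34 and 5.65 ± 0.39 on the log2 scale. None of 16 signalling and processing partners was called over the iPS lines or in pre-iPS by limma, edgeR or DESeq2, while at an unadjusted p under 0.05 limma found 5 and 13. In MEF 2 were higher and 3 lower, against 21.6% higher and 4547 of 17075 lower of all tested genes.

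Genes next to the clusters did not share the MEF excess of the members at the size that a call needs, a log2 change of at least 1. Of 15 listed, among them *Pcdh1* and *Pcdh12* of the non-clustered list, 13 were tested. None was higher and 6 were lower in MEF than in iPS. Of all tested genes 21.6% were called higher and 4547 of 17075 lower. The median log2 difference was −0.57, against −0.087 over all tested genes. A smaller MEF excess was present in some, with an iPS mean of 64.4% (*Fchsd1*), 82.1% (*Hdac3*) and 84.4% (*Hars2*) of the MEF mean. The median over the 13 was 156%. *Taf7*, a transcription factor subunit gene that lies between the β and γ clusters, was 298 and 336 in MEF, 730 and 664 in pre-iPS and 1755 to 3757 in iPS, so it went opposite to the members on both sides of it in MEF. In pre-iPS *Taf7*, *Arap3* and *Pcdh1* were called lower (by 1.93, 3.54 and 1.29), against 11.6% of tested genes. Over the iPS lines no neighbouring gene was called by limma, edgeR or DESeq2, with 4 at an unadjusted p under 0.05 in each.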

How the data were processed

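RNA of 10 libraries from 5 lines was read as 50-nt single reads on poly(A) libraries made with a kit that does not mark strand. Per the labels, the authors used CASAVA 1.8.2, FastQC, TopHat2 2.0.8b, HTSeq 0.5.3p9 and edgeR with the build mm10. The annotation, the counting mode and the strand setting are not given in the sources used here, so near-identical members and antisense RNA are uncertain. The deposited signal values are read counts after edgeR's equalization of library sizes by the authors, which yields pseudo-counts. Each value was inverted to reads, and 100% came out whole within 0.05 reads (common dispersion 0.000389), which gave the depth. Every listed gene has at least 10 reads in all.

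Log2(value + 1) was fitted in limma 3.58.1 (lmFit and trended eBayes, R 4.3.3) with 1 mean per line over the 10 libraries. Benjamini-Hochberg adjustment ran over the 17075 genes that reached 10 in 2 or more libraries, and 1826 were left out. Line was a block for passage. The tests were tried on counts simulated from these genes, and the outcome is not reported here. Passage numbers in the labels pair the pre-iPS and iPS libraries, and deviations from the line means correlated with r of 0.235 to 0.504 in all 6 pairs of lines, so the passage was also fitted as a block. MEF has other passages and no such fit.

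Own exon was counted as exonic bases of GENCODE M21 that no other listed gene or annotated member covers, a definition chosen after seeing the data. *Pcdha10* was placed only by RefSeq and has no exon length here. Alternatives were pseudocounts of 0.5 and 5, no filter, a mean of at least 50, the adjusted p alone, quantile normalization, only the lines compared, each library left out, other lengths, and edgeR 4.0.16 and DESeq2 1.42.0 on the reads. Ratios of few reads have exact (Clopper-Pearson) intervals from SciPy 1.17.1, which cover counting error only.

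Named were the C-type members, the 3 leading members of each cluster and line, and per comparison the 5 higher and 5 lower called members with the largest change. Other members, *Pcdhb14* and *Pcdhga12* among them, were added to these after seeing values. The read ratio without the control library of passage 25 was likewise added after seeing the data. Members and gene lists were chosen with earlier results of these data known. Sequences of the members are not reported here.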

Additional observations from a re-analysis of the deposited data

Results flagged for a closer look

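In 92 sets of 4 or 6 libraries (46 tested members in the 6 iPS libraries and in the 4 clone libraries), 5 had a library far from the others by Dixon's criterion at the 95% level, where chance gives about 1 in 20. *Pcdhac2* was 18.8 in the control line at passage 25, against 2.65 to 6.16 in the other 5 iPS libraries. Within the 4 clone libraries *Pcdhac2* was 6.16 in clone 1 at passage 25. *Pcdhb2* and *Pcdhb7* were also highest in clone 1 at passage 25, at 14.4 and 22.6. *Pcdhga7* was 116 in clone 2 at passage 5, against 57.3 to 64.7 in the other 3 clone libraries.

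Between the clones, measured against the same control line, 3 members differed in limma's contrast of clone 2 with clone 1. The difference was 2.82 on the log2 scale for *Pcdhga10*, 2.60 for *Pcdhga9* and −1.68 for *Pcdhgb5*. Y-linked genes were at 0 to 4.47 in clone 2 and at 773 to 2116 in clone 1, and *Nanog*, *Esrrb* and *Zfp42* were called higher in clone 2 than in clone 1. The part of either in the differences was not tested.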

How the results depend on the processing

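With 2 passages per line and 1 control line, differences between iPS lines are those of single clones, and α members have too few reads outside MEF to be ranked. The named members were picked for large changes in these same data. They kept their calls of MEF against iPS and of pre-iPS against MEF in every alternative. Over all named members and comparisons 590 values kept their call, 95 lost it and 0 reversed. The losses fell mostly among the iPS lines, and the rest in pre-iPS against iPS. For the clones against the control *Pcdhb19* kept its call in 4 settings and lost it in 16, and *Pcdhgb8* in 9 and 11. *Pcdhga10* in clone 1 against the control kept 6 and lost 14.

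Fitting only the lines compared left 0 members called in each comparison among iPS lines (8 to 13 at an unadjusted p under 0.05). Quantile normalization gave 5 for the clones against the control, 4 for clone 1 against the control, 8 for any difference among the iPS lines and 26 for pre-iPS against iPS. Over all 17075 tested genes the calls (higher and lower) were 261 and 254, 201 and 171, 444 and 329, and 1483 and 1426 in that order. DESeq2 gave 7 for clone 2 against the control, 5 for clone 2 against clone 1 and 8 for any difference. Its calls over all tested genes (higher and lower) were 332 and 338, 331 and 104, and 605 and 408. For clone 1 against the control a pseudocount of 0.5 or 5, no filter and edgeR each gave 1. The causes of these changes were not tested.

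Leaving out 1 library gave 1 to 3 called members for the clones against the control, 0 to 2 for clone 1 and 2 to 5 for clone 2 against it, 0 to 3 for clone 2 against clone 1, 3 to 4 for any difference, 11 to 16 for pre-iPS against iPS, 43 to 45 for MEF against iPS and 41 to 45 for pre-iPS against MEF. The 0 for clone 1 against the control came without either clone 1 library, control passage 25 or either MEF library, the 0 between clones without either clone 1 library, the 1 for the clones without any library but clone 2 passage 25, and the 5 for clone 2 without its passage 25. With the passage as a replicate block the counts were 2, 3, 4 and 3 for the first 4 comparisons, 5 for any difference and 15 for pre-iPS against iPS. Among named members the block changed the call of *Pcdhb19* alone.

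Summed levels as a percentage of MEF, from reads scaled to depth per kb, were 10.36 (β) and 18.03 (γ) in the control line, 2.61, 15.45 and 20.63 (α, β, γ) in clone 1, 2.81, 13.41 and 18.90 in clone 2, and 3.73, 24.63 and 20.77 in pre-iPS. The α sum of clone 2 was 1.92 per kb of all exons, 1.804 with no length correction and 2.34 per kb of bases in no other annotated gene. With no length correction the effective number was 14.205, 14.361, 13.692 and 11.462 for β in the control, clone 1, clone 2 and MEF, and 15.191 and 18.465 for γ without *Pcdhgc3* in pre-iPS and MEF. It was 18.606 in MEF per kb of all exons. Per kb of bases in no other annotated gene, which leaves out *Pcdhga10*, it was 16.361, 16.363, 12.565 and 17.422 in the control, clone 1, pre-iPS and MEF. Leaving out a library gave 14.73 to 15.295, 15.045 to 16.033 and 14.043 to 14.998 for β in the control, clone 1 and clone 2, and 17.649 to 18.323, 17.160 to 17.475, 15.288 to 17.558 and 14.275 to 14.490 for γ in the same lines and pre-iPS.

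With no length correction the leading γ member other than *Pcdhgc3* was *Pcdhga12* in the control line (10.712%) and *Pcdhgc5* in MEF (11.659%), and the leading β member of MEF was *Pcdhb22* (19.715%). On the same basis *Pcdhga7* led in MEF per kb of all exons (9.422%). Per kb of bases in no other annotated gene, again with *Pcdhgc3* set aside, *Pcdhga11* led in the control, clone 1 and pre-iPS (15.098, 11.481 and 19.417%), *Pcdhgb6* in clone 2 (11.145%) and *Pcdhga7* in MEF (10.048%). Without 1 library the leader was *Pcdhga2* (8.435%) or *Pcdhga1* (10.405%) for γ other than *Pcdhgc3* in the control line, *Pcdhgb8* (12.495%) or *Pcdhga10* (18.906%) for γ, likewise, and *Pcdhb17* (17.525%) or *Pcdhb16* (17.88%) for β in clone 2.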
